A study of Mus musculus with 2 samples.

Results

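Fibro-adipogenic progenitors are fibroblast-like cells that lie between the fibres of skeletal muscle. Described here is the open chromatin at 10 genes used to recognise them: Pdgfra, Osr1, Osr2, Prrx1, Twist1, Twist2, Tcf7l2, Dpp4, Pi16 and Ly6a. They were chosen by name, as 10 of the 21853 protein-coding genes with a coding transcript in GENCODE M21, and each was examined over its gene body and 50 kb on each side in mm10. DNase-seq, which sequences the ends of fragments that DNase I cuts out of accessible chromatin, was run on nuclei of calf muscle (gastrocnemius) from B6CASTF1/J males that were 10 days old. B6CASTF1/J is a hybrid strain that carries one set of chromosomes from each parent. The single group held 2 libraries, biological replicates 1 and 2. A single donor record covers both samples, and the labels mention 3 males for each without saying whether tissue was pooled, so differences between the libraries measure only the spread between these samples.

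Fibro-adipogenic progenitors make connective tissue matrix, support the repair of muscle after injury and can become adipocytes or matrix-depositing fibroblasts. They are recognised by the surface receptor PDGFRA and by Sca-1, the product of Ly6a, while Dpp4 and Pi16 mark a fibroblast state shared by many tissues. Osr1, Osr2, Prrx1, Twist1, Twist2 and Tcf7l2 encode transcription factors of embryonic connective tissue, several of which stay active in these cells after birth. The libraries came from whole muscle, so a peak does not show which cell type was open, and fewer open cells cannot be told apart from a less accessible site in each cell.

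Replicate 1 had 123255 peaks and 310961 footprints, and replicate 2 had 150088 peaks and 373154 footprints. A footprint is a short stretch inside open chromatin that is protected from cutting. Each peak carries the authors' own value, a signal scaled to library depth, and values are given for replicate 1 and then replicate 2. The values moved in whole steps, and taking each step as 1 tag, the peak of median value held 134 and 122 tags. A site is a place with a peak in either library, and a shared site has overlapping peaks in both. Over all shared sites the median value was 0.941 and 1.16.

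The stretches that carry the results below are printed here from the GRCm38 (mm10) reference, plus strand, 5′ to 3′. Capitals mark bases inside footprints found in both libraries. The mice also carry CAST alleles, whose sequence was not used. Both sites of Pdgfra are shown because they were the highest at that gene, the first between a pair of alternative starts and the second upstream of all of them.
Pdgfra, chr5:75156350-75156460: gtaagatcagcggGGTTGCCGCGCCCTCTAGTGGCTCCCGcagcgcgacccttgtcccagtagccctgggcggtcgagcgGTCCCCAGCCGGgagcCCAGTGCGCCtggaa
Pdgfra, chr5:75151201-75151321: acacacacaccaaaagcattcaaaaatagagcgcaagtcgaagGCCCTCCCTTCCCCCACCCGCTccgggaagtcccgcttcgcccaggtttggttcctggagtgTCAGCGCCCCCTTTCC
The pair from Osr1 shows a site past the end of the gene that was higher than its promoters, and the second start of the gene.
Osr1, chr12:9584901-9585080: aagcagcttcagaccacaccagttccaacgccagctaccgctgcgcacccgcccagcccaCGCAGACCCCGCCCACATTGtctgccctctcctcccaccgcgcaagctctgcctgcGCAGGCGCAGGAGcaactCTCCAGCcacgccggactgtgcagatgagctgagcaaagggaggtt
Osr1, chr12:9574341-9574440: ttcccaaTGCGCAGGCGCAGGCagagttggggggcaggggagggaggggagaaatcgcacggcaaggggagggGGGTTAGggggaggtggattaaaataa
For Osr2, the upstream site and the promoter exchanged rank between the libraries.
Osr2, chr15:35292961-35293160: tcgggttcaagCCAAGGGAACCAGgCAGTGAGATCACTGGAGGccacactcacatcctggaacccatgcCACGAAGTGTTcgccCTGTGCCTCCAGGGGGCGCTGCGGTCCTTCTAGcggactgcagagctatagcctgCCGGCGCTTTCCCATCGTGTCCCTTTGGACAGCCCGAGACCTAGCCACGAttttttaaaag
Osr2, chr15:35295941-35296097: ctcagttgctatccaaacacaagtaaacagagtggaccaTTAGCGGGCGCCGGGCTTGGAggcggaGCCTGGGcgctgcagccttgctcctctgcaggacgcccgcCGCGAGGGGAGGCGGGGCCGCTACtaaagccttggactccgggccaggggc
The intronic site of Prrx1, the promoter of Twist1, and a distal site and the promoter of Twist2 were the highest of those genes.
Prrx1, chr1:163311961-163312220: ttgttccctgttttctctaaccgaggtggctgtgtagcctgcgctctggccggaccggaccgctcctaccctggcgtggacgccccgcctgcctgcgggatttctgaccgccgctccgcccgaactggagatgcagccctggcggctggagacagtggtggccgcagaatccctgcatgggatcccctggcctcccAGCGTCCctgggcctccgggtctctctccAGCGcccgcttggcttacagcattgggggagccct
Twist1, chr12:33957421-33957670: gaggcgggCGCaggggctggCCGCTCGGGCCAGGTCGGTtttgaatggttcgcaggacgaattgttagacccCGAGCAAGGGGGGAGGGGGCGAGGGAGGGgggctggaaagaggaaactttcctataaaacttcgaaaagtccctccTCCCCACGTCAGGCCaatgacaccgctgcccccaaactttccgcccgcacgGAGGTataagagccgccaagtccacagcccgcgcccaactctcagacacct
Twist2, chr1:91874761-91874960: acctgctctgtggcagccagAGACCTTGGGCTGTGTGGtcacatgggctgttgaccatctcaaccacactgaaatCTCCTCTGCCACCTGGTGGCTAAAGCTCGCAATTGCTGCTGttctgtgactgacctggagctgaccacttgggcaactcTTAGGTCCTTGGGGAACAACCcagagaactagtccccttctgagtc
Twist2, chr1:91801201-91801460: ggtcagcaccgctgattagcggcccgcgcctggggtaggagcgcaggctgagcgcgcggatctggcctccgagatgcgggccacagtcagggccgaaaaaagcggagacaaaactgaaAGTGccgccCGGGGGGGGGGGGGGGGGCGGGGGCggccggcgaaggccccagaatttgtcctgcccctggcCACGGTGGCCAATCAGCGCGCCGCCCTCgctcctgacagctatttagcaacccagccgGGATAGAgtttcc
The promoter of Tcf7l2 had the highest promoter value of the 10 genes, and the intronic site of Dpp4 and the site downstream of Ly6a stand for the surface proteins.
Tcf7l2, chr19:55741497-55741796: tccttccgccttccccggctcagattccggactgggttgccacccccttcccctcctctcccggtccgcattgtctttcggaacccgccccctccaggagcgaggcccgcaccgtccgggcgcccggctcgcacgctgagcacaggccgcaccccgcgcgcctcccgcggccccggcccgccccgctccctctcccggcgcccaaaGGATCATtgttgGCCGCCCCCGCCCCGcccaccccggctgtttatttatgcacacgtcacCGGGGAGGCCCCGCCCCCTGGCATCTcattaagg
Dpp4, chr2:62381901-62382060: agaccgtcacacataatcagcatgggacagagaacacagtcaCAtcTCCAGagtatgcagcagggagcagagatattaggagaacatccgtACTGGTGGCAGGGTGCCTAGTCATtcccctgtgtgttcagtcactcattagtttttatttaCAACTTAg
Ly6a, chr15:74992841-74993020: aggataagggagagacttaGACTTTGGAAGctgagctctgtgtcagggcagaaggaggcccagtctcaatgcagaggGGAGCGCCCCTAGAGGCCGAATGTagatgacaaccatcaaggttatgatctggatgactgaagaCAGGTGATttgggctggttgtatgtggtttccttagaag

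At their promoters, 8 of the 10 genes were open in both libraries, where open means a peak within 500 bp of the start of a coding transcript. Over all protein-coding genes the share was 66.0%, from 14419 genes. All 6 transcription factor genes and the receptor gene Pdgfra were open in both, against 1 of the 3 genes for other surface proteins, Dpp4. Pi16 had a promoter peak in replicate 2 only and Ly6a in neither. Replicate 1 alone thus had 8 of the 10 open, with 67.8% of all genes, and replicate 2 had 9, with 68.0%. In the stricter of the deposited peak sets 7 of the 10 were open in both libraries, against 61.8%. The open promoters were mostly lower than the typical open promoter: the median over the 8 genes was 2.13 and 3.45, against 4.64 and 6.44 over all open coding promoters. Only 2 of the 8 lay above that median in replicate 1, Tcf7l2 and Pdgfra, and only 2 in replicate 2, Tcf7l2 and Osr2.

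Open promoters are more frequent among CpG-rich genes, so the CpG content of the 10 starts is given with the count. Of coding genes whose observed to expected CpG ratio lay under 0.2, 13.1% were open in both libraries, and the share was 41.4%, 81.2%, 95.6% and 98.3% in the classes from 0.2, 0.4, 0.6 and 0.8 upward. Ly6a, with a ratio of 0.0705, and Pi16, with 0.210, had the lowest ratios of the 10 genes, and Tcf7l2, with 0.877, the highest. Each ratio was taken within 500 bp of the first annotated start of the gene. For Pdgfra it was 0.398, but that start had a peak in replicate 2 only. Pdgfra was open in both libraries through later starts, whose CpG ratio was not measured. The part of CpG content in the promoter count was not tested.

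**Figure D1:**
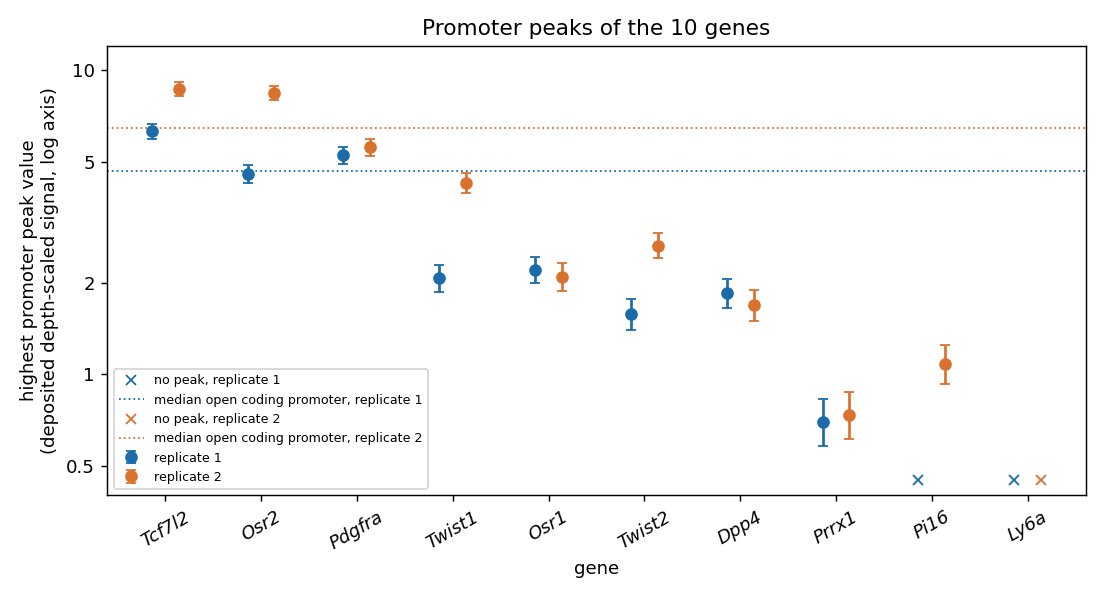
The highest promoter peak value of each gene (log axis, deposited depth-scaled signal) in replicate 1 (blue) and replicate 2 (orange), with 95% Poisson intervals on the tags and crosses for no peak. Dotted lines are the medians of open coding promoters, 4.64 and 6.44; Tcf7l2 lies above both, and Ly6a has no peak in either library.

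Pdgfra encodes the alpha receptor for platelet-derived growth factors and is the receptor by which these cells are usually sorted. Its gene on chromosome 5 (75152292 to 75198215, plus strand) had open chromatin spread over its 5′ end, with 10 of its 15 shared sites within 5 kb of the first coding start. The highest, at +4069 bp, reached 5.25 and 5.57, with counting intervals of 4.93 to 5.60 and 5.22 to 5.94. The intervals of the libraries overlapped. It lay near coding starts at +3607 bp and +4541 bp, whereas the first annotated start had no peak within 500 bp in replicate 1 and one of 1.31 in replicate 2. The promoter value of Pdgfra therefore belongs to internal starts, and with a limit of 250 bp it was 2.94 and 2.52, the value of the site at +3579 bp. The site 1001 bp upstream of the first start followed at 4.15 and 4.58. All 15 shared sites had Pdgfra as the nearest coding gene, and 12 of them held a footprint found in both libraries.

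The ligands and the other receptors of this pathway were open too. All 6 genes of the PDGF list had a promoter peak in both libraries, against 66.0% of all coding genes. Their median CpG ratio was 0.527, in the class from 0.4 where 81.2% of coding genes were open. Pdgfa, a ligand of PDGFRA, was highest with 3.26 and 5.70, followed by the ligand gene Pdgfb with 2.96 and 2.70. Pdgfrb, the beta receptor and a pericyte marker, had 1.80 and 3.87, and the ligand gene Pdgfd 1.40 and 1.76. Pdgfra was higher than each of these 4 in replicate 1, and was below Pdgfa in replicate 2.

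The odd-skipped related genes encode zinc finger factors, and Osr1 marks embryonic muscle connective tissue cells. At Osr1 on chromosome 12 (9570116 to 9581500, plus strand) the first start had 2.20 and 2.09, a value shared with the divergent non-coding gene 1700022H16Rik. The second start, at +4325 bp, had 1.47 and 2.03. A site 14875 bp from the first start, 3491 bp past the end of the gene, was higher than both, at 3.31 and 4.79. Those were 3 of only 4 shared sites in 111.385 kb, all of them nearest to Osr1 and all with a footprint found in both libraries. At 3.59 shared sites per 100 kb, Osr1 was the sparsest of the 10 windows.

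Osr2 on chromosome 15 (35296098 to 35303305, plus strand) had the highest site not at a start among those nearest to one of the 10 genes. That site, 3037 bp upstream, had 9.38 in replicate 1 and 6.75 in replicate 2, higher than 98.0% and 94.6% of all peaks in those libraries. The promoter had 4.57 and 8.42. The upstream site was thus the higher of the pair in replicate 1 and the promoter in replicate 2. At the promoter the counting intervals were 4.26 to 4.89 and 7.99 to 8.87 and did not overlap. Each of these sites held 5 footprints found in both libraries. The next site, at +30713 bp in an intron of the non-coding gene BC048602, had 2.43 and 1.83. Of the 15 shared sites, only 3 were higher in replicate 2, and the 12 beyond those named had values from 0.246 to 1.03.

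Prrx1 encodes a paired-related homeodomain factor of limb mesenchyme. On chromosome 1 (163245119 to 163313710, minus strand) its promoter had 0.696 and 0.734, the lowest of the 8 open promoters, resting on 128 and 125 tags. It lay above 6.82% and 7.93% of open coding promoters. The highest sites lay just inside the gene, in the first kilobases after the start, at +1619 bp (intron) with 2.66 and 2.82, and at +1259 bp (exon) with 2.00 and 2.12. A site 24981 bp upstream had 0.870 and 2.25. A further 17 sites at Prrx1 were seen in replicate 2 only, the highest with 1.04, and 0 in replicate 1 only. In the stricter peak set, and with a limit of 250 bp, the promoter peak of replicate 1 was lost. Its paralogue Prrx2 was open with 1.13 and 1.83.

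Twist1 and Twist2 encode basic helix-loop-helix factors that restrain differentiation of mesenchymal cells. Twist1 on chromosome 12 (33957671 to 33959829, plus strand) had 1 strong site: its promoter, with 2.07 and 4.25 and 8 footprints found in both libraries. The ratio of replicate 2 to replicate 1, 2.06, was the highest of the 8 open genes. In replicate 1 a separate peak of 1.76 lay beside it that had no counterpart in replicate 2. The other 7 shared sites stayed low, and the next, at -1550 bp and +960 bp, had 0.729 and 0.845, and 0.854 and 0.634. Ferd3l, the only other coding gene with a start in the window, had a promoter peak of 0.299 in replicate 1 and none in replicate 2.

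At Twist2 on chromosome 1 (91801461 to 91848028, plus strand), distal sites matched the promoter. The promoter had 1.58 and 2.65, a site at +73400 bp, 26833 bp past the end of the gene, had 2.94 and 2.48, and a site 46200 bp upstream had 2.35 and 1.57. Both distal sites were higher than the promoter in replicate 1 and lower in replicate 2. No other coding gene has a start in this window.

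The partners of the TWIST factors were open too. TWIST proteins pair with E proteins, and ID proteins compete for them. All 7 such genes listed had a promoter peak in both libraries, against 66.0% of all coding genes. Their median CpG ratio was 0.672, in the class from 0.6 where 95.6% of coding genes were open. The ID genes Id2, with 7.67 and 13.5, Id4, with 6.76 and 12.5, and Id3, with 6.65 and 12.2, and the E protein gene Tcf3, with 10.1 and 9.80, led the list. The list medians were 6.76 and 10.6, above Twist1 and Twist2 in both libraries. The lowest of the list, Id1, named after its values were seen, had 2.34 and 3.98, which in replicate 2 is below Twist1.

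Tcf7l2 encodes a nuclear factor of the Wnt pathway and marks muscle connective tissue fibroblasts. On chromosome 19 (55741820 to 55933654, plus strand) it had the highest promoter value of the 10, 6.29 and 8.67, above 63.4% and 61.8% of open coding promoters. Its counting intervals were 5.93 to 6.67 and 8.24 to 9.13. The gene also had the most shared sites, 23, of which 18 lay inside it and 15 lay over 5 kb from each of its coding starts. Among the 3 highest were a site at +209791 bp, 17957 bp past the end, with 2.05 and 4.28, and an intronic site at +1951 bp with 2.51 and 3.13. The internal start at +153690 bp was open with 2.10 and 2.62, while those at +152714 bp and +156733 bp had no peak within 500 bp. Tcf7l2 was the only coding gene with a start in its window.

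The 6 other nuclear factors of the Wnt pathway examined were all open in both libraries, against 66.0% of all coding genes. Their median CpG ratio was 0.672, in the class from 0.6 where 95.6% of coding genes were open. Ctnnb1, which encodes beta-catenin, had 11.3 and 18.1. The coactivator genes Pygo2, with 6.30 and 14.9, and Bcl9, with 7.76 and 12.1, and the paralogue Tcf7l1, with 8.39 and 8.64, followed. Tcf7l2 lay below Ctnnb1, Bcl9 and Tcf7l1 in replicate 1, where Pygo2 was nearly equal to it, and below Ctnnb1, Pygo2 and Bcl9 in replicate 2. Its paralogues Tcf7, with 2.02 and 1.37, and Lef1, with 1.48 and 1.27, named after their values were seen, lay below it in both.

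Dpp4, a surface peptidase gene, was the only one of the 3 other surface protein genes open in both libraries. On chromosome 2 (62330073 to 62412231, minus strand) its promoter peak at +320 bp had 1.84 and 1.68 and the counting intervals of the libraries overlapped. A site at +86630 bp, in an exon of the neighbouring gene Slc4a10, had 1.16 and 1.74, and an intronic site at +30250 bp had 1.07 and 1.43. The last held 4 footprints found in both libraries. The paralogue Fap, a fibroblast peptidase gene, was open with 0.984 and 1.83.

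Pi16, which encodes a secreted or membrane-anchored peptidase inhibitor, lies on chromosome 17 (29317680 to 29330593, plus strand). Its promoter peak was absent in replicate 1 and had 1.08 in replicate 2, from 184 tags. In the stricter peak set the promoter had no peak in either library. Its window had the highest density of the 10, 15.1 shared sites per 100 kb, but only 3 of its 17 shared sites had Pi16 as the nearest coding gene. The highest of those had 1.05 and 1.06. The 3 highest sites of the window were the promoter of Mtch1, a mitochondrial carrier family gene, with 14.0 and 22.3, that of BC004004 with 9.20 and 14.2, and an intron of Fgd2 with 7.52 and 9.10. A further 3 sites nearest to Pi16 were seen in replicate 1 only and 6 in replicate 2 only. Over all these sites the highest value was 1.09 in replicate 1 and 1.602 in replicate 2. A peak of 1.87, 318 bp past the end of Pi16 but nearest to the start of Mtch1, was seen in replicate 2 only.

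Ly6a on chromosome 15 (74994877 to 74998031, minus strand) had no peak within 500 bp of any of its 6 coding starts. With a limit of 1000 bp replicate 2 had one of 0.405. Only 1 of the 8 shared sites was nearest to Ly6a, at +5100 bp, 1946 bp past its end, with 2.66 and 1.49 and 3 footprints found in both libraries. The highest site of the window, at +29630 bp with 3.64 and 3.88, was nearest to Ly6e, a widely expressed relative whose own promoter had 2.37 and 2.61. Ly6i, a further relative, had no promoter peak. The 1001 bp around the first start of Ly6a had a copy of 97.7% identity over 1002 bp at the start of Ly6c1 on the same chromosome, which was without a peak in either library too. No such copy, of at least 95% identity over 100 bp, was found for the other 9 genes. The part of this copy in the missing peak was not tested.

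**Figure D2:**
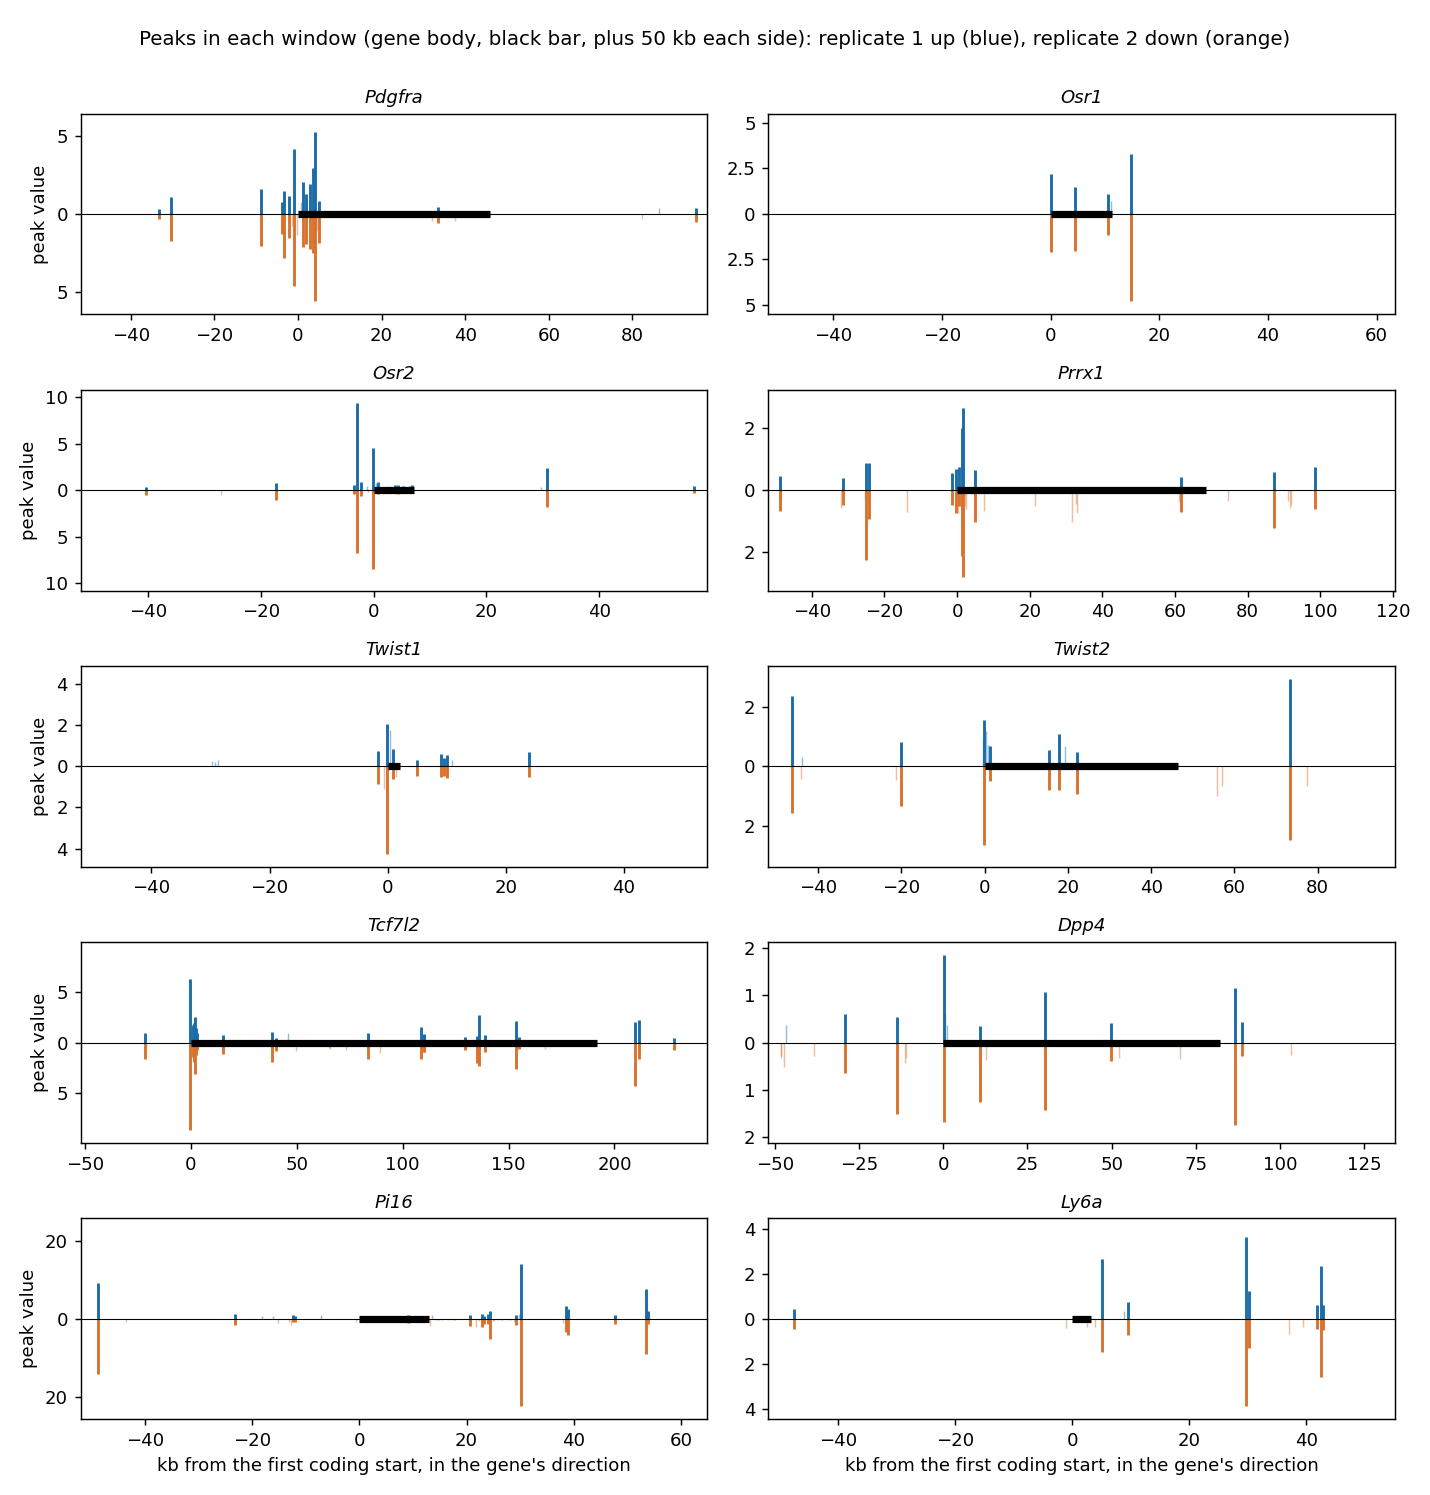
Peak values in each window against the distance in kb from the first coding start, in the direction of the gene (black bar), with replicate 1 upward in blue and replicate 2 downward in orange; thick lines are shared sites, thin pale lines sites of 1 library, and each panel has its own scale. Pdgfra shows a group of sites over its 5′ end, Tcf7l2 sites along the whole gene, and the high sites of the Pi16 window lie at its neighbours.

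Together the 10 windows, which do not overlap, covered 1471.9 kb and held 148 peaks in replicate 1 and 206 in replicate 2. These formed 231 sites, of which 119 were shared, or 51.5%, against 53.8% of all sites in the genome. All 10 windows held at least 1 shared site, as did 89.1% of all coding gene windows. Another 28 sites were seen in replicate 1 only and 84 in replicate 2 only. Of these 112, 14 had a value over 1. Of the shared sites, 96 had one of the 10 genes as the nearest coding gene: 30 lay upstream, 49 inside and 17 past the end of the gene. In 6 of the 10 genes the highest such site (ranked by geometric mean) lay within 500 bp of none of the gene's own coding starts. These were Osr1, Osr2, Prrx1, Twist2, Pi16 and Ly6a. The same count was not made over all coding genes, so no share stands beside it. Of all shared sites in the genome, 26.1% lay at an annotated start. That share counts every site and the starts of all transcripts, so it is no background for these 6 genes.

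Shared sites per 100 kb had a median of 7.79 over the 10 windows and of 5.92 over all coding genes, and 7 of the 10 lay above the latter. Counting only sites nearest to the gene, the median of all coding genes was 1.78 and 9 of the 10 lay above it, all but Ly6a. Osr2, with 13.1, Pdgfra, with 10.3, and Tcf7l2, with 7.88, were then highest, and Pi16 dropped from the first place to the ninth. Genes with few coding neighbours have more sites nearest to them by construction, which was not corrected for.

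**Figure D3:**
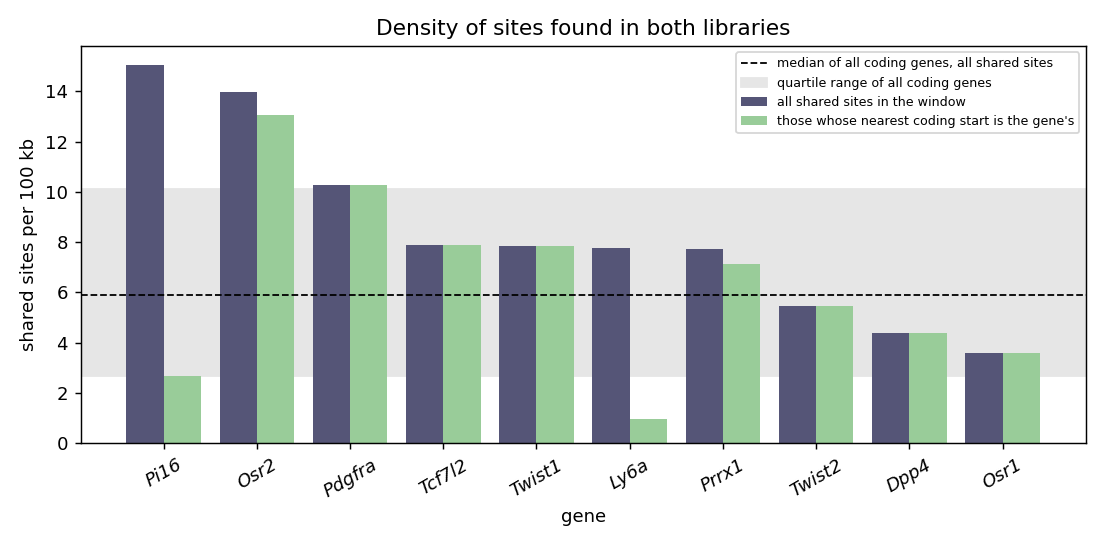
Shared sites per 100 kb of window for each gene, over the whole window (dark) and counting only those whose nearest coding start belongs to the gene (green). The dashed line is the median of all coding genes for whole windows, 5.92, and the grey band the range between their quartiles; Pi16 falls from 15.1 to 2.66 and Ly6a from 7.76 to 0.969.

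Place and level of the shared sites in the 10 windows were set beside those of the whole genome. Of the 119, 26.1% lay at an annotated start, as did 26.1% of all shared sites, and 31.9% lay in introns against 36.2%. Exons held 11.8%, or 14 sites, against 6.69%. Some of these lay in exons of neighbouring genes, such as BC004004 in the Pi16 window and Slc4a10 in the Dpp4 window. The median values were 0.935 and 1.26, and 66.4% were higher in replicate 2, 79 of the 119, near the 64.9% of all shared sites. Spearman's rho between the libraries was 0.877 over these sites and 0.895 over all shared sites, which share depth scaling within a library. Footprints found in both libraries were present in 67.2% of the 119 sites, against 76.4% of all shared sites. Their density had a median of 13.5 per 100 kb over the 10 windows and of 13.9 over all coding genes, with 4 of the 10 above.

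**Figure D4:**
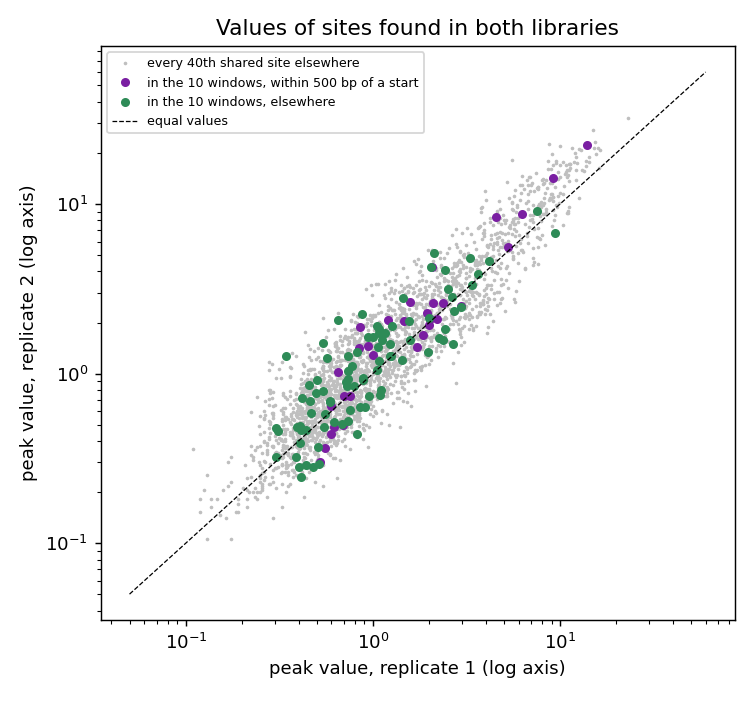
Value of each shared site in replicate 1 (horizontal) and replicate 2 (vertical), both on log axes, for the 10 windows (purple at starts, green elsewhere) and for every 40th shared site elsewhere (grey); the dashed line marks equal values. Of the 119 sites, 79 lie above the line, or 66.4%, against 64.9% of all shared sites.

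The libraries also differed at the promoters. Of the 8 open genes, 6 were higher in replicate 2. The same count was not made over all open coding promoters. Over all shared sites the share was 64.9%, but only 26.1% of those sites lay at an annotated start. The median ratio of replicate 2 to replicate 1 was 1.22 over the 8 genes and 1.36 over all open coding promoters. Of the 8 genes, 4 lay above the latter. For 4 of the 8, Osr2, Twist1, Twist2 and Tcf7l2, the counting intervals did not overlap, against 73.1% of all open coding promoters. Those 4 have the highest CpG ratios of the 10 genes. Differences between the libraries and between the animals cannot be told apart here, and the part of CpG content was not tested.

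Short motifs were searched on both strands in the central 150 bp of each shared site. The C/EBP letters TTGCNNAA were in 11 of the 119 sites, 9.24%, against 5.32% of all shared sites. The AP-1 letters TGANTCA were in 9, or 7.56% against 5.45%, and the TEAD letters GGAATG in 13, or 10.9% against 8.88%. Of the 31 sites at starts 0 held the C/EBP or AP-1 letters, where all shared sites at starts had low shares too, 3.36% and 2.62%. The E-box CAGATG, of the kind bound by helix-loop-helix factors, was in 16.0% against 13.8%, the RUNX letters TGTGGT in 6.72% against 9.37%, and the ETS letters CCGGAAG in 0.840% against 3.35%. The ETS difference turned with a window of 300 bp, where the letters were in 5.88% against 5.10%. These shares rest on few sites and are descriptions only.

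Among the printed stretches, the Twist2 site at +73400 bp held a match to a CTCF core motif wholly inside a footprint, the capitals GCCACCTGGTGG on the plus strand. Across the 119 sites the core was in 3.36%, against 5.01% of all shared sites. A pair of looser forms was added after the data were seen, the second of them written to take in letters already read in these stretches, so their matches are no independent observation. The first, which left the A of the opening CCA free, was in 8.40% against 7.60%. It also matched the upstream Osr2 site at CCTCCAGGGGGC, inside a footprint, and the Tcf7l2 promoter at gccccctccagg, outside any footprint. The second, which also freed the G after the central AG, was in 14.3% against 15.9%. It also matched the Pdgfra site at +4069 bp at GCCCTCTAGTGG, inside a footprint, and the Osr2 promoter at ccaTTAGCGGGC, partly inside a footprint. The second start of Osr1 held an NRF1 motif match, GCGCAGGCGC, inside a footprint but outside the central 150 bp of its site. The printed Osr1 site past the gene end held the same letters only partly inside a footprint. The Tcf7l2 promoter held the SP/KLF letters GGGCGG wholly in footprints at 3 places, and partly in or outside them at others. Across the 119 sites NRF1 was in 0.840% against 1.71% of all shared sites, and SP/KLF in 19.3% against 19.5%.

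Other genes of fibroblasts and of the remaining cells of muscle were examined the same way, beside the 66.0% of all coding genes that were open in both libraries. Of 25 further fibroblast genes, 23 were open in both libraries, led by the collagen VI gene Col6a2 with 12.8 and 15.6, the fibronectin gene Fn1 with 7.43 and 12.5, the quiescence regulator Hic1 with 6.73 and 7.28, and the collagen I gene Col1a1 with 5.00 and 9.75. Tnxb, which encodes tenascin X, was the only one without a peak in either. Among other cells, all 10 myofibre genes, 9 of 9 satellite cell and myogenic genes, 9 of 9 pericyte and smooth muscle genes and 9 of 10 endothelial genes were open in both. Tendon genes were open in 5 of 7, Schwann cell genes in 6 of 8 and adipocyte genes in 4 of 7. Of the blood cell genes, 1 of 8 macrophage genes, Lyz2 with 0.353 and 0.605, and 0 of 7 lymphocyte genes were open in both. In replicate 2 alone, 5 of the 8 macrophage genes had a promoter peak, and the 3 without one in either library were Adgre1, Itgam and Ptprc. Of the lymphocyte genes, 1 had a peak in replicate 2, and 6 had none in either library. The median CpG ratio was 0.188 for the macrophage list, in the class under 0.2 where 13.1% of coding genes were open. It was 0.544 for the tendon list, in the class from 0.4 with 81.2%. The other lists in this paragraph had medians from 0.215 (adipocyte) to 0.397 (Schwann cell), in the class from 0.2 with 41.4%. The part of CpG content in these counts was not tested. Over the genes open in both libraries, the median promoter values were 2.13 and 3.45 for the 8 open genes described here. They were 2.44 and 3.15 for the fibroblast genes, 2.30 and 3.88 for myofibre and 0.870 and 1.29 for endothelial genes. Schwann cell genes had 2.70 and 4.15, tendon genes 2.66 and 3.82, and pericyte and smooth muscle genes 2.18 and 2.86. Adipocyte genes had 2.25 and 1.99, and satellite cell and myogenic genes 1.32 and 1.72. The medians of the 8 genes were thus not particular to fibroblast genes. Twist1, Twist2 and Tcf7l2 are not restricted to fibroblasts, and the part of other cell types in the peaks of the 10 genes was not tested.

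**Figure D5:**
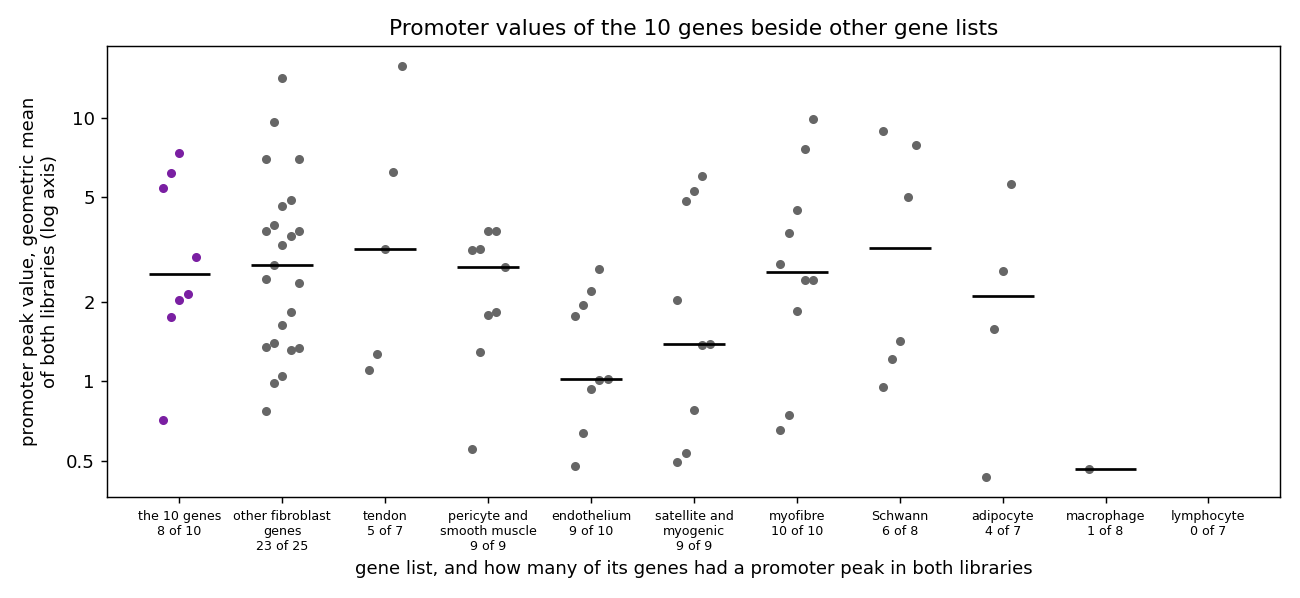
Promoter peak value (geometric mean of both libraries, log axis) of each gene open in both libraries, for the 10 genes (purple) and for lists of other cell types (grey), with the list median as a bar and the count of open genes under each name. The 10 genes span the range of the other fibroblast genes except its top, and no lymphocyte gene is open in both libraries.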

How the data were processed

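DNase-seq peaks and footprints of 2 libraries of 1 group were used. Per the notes deposited with the files, each library was processed on its own from filtered alignments to mm10. The aligner, peak caller and footprint caller are named in none of the sources used here. The peak value is a signal scaled to depth by the authors: 100% of values were whole multiples of a step of 0.00544 in replicate 1 and 0.00587 in replicate 2, within 0.05 of a step. Treating a step as 1 tag gave 95% Poisson intervals, which cover counting error only, since tags can include PCR copies. Footprints carry a deposited p-value type of number, 0.01 on every line, and served here by position alone. The wider of 2 peak sets per library was used, and the per-position file was not used here.

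Genes and starts came from GENCODE M21 and sequence from GRCm38. Peaks were assigned to windows by midpoint, and sites shared at least 1 bp. Promoters spanned 500 bp on each side of coding starts. Similar sequence was searched with blastn 2.17.0, and other steps used Python 3.11.15, pandas 2.3.3 and pysam 0.24.0. With 1 group no test was made. The 14 context lists (125 symbols, all matched) and the motifs, like the 10 genes, were chosen with earlier results of these data known, and 2 of the 23 motifs, looser CTCF forms, were added after the data or the printed sequences were seen. For each gene its promoter, its 3 highest shared sites and coding neighbours were named, and from each list at most 4 open genes with the highest geometric mean and at most 3 without a peak. The scripts were tested on simulated data.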

Additional observations from a re-analysis of the deposited data

How the results depend on the processing

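No paired analysis was possible because there is 1 group. The number of genes open in both libraries, 8, was 7 with a 250 bp limit or the stricter peak set, where Prrx1 was lost, and 8 to 9 with 1 library alone. The median promoter value of the 8 genes open in both libraries was 2.65 as the mean of both libraries. Over the same 8 genes it was 2.13 in replicate 1 and 3.45 in replicate 2. The 119 shared sites became 49 with no flank, 76 with 10 kb and 70 in the stricter set, and 148 to 206 peaks were counted from 1 library alone. The mean of 12.03 peaks per 100 kb became 16.4 with 10 kb flanks and 7.51 in the stricter set. The 213 footprints found in both libraries became 140 under the stricter overlap rule for footprints, 70, 129 and 324 with flanks of 0, 10 and 100 kb, and 378 to 472 in 1 library alone. Fewer or more bases and peaks enter by construction in these settings. With a 300 bp motif window, 17 of 23 motif shares stayed within their counting interval. The other 6 moved: AP-1, TEAD, the E-box CAGATG, SP/KLF, ETS and C/EBP. Of these, ETS turned from below to above the share of all shared sites, at 5.88% against 5.10%. SP/KLF turned the same way, from 19.3% against 19.5% to 29.4% against 26.2%. Among the shares that stayed, the E-box CATATG and the CArG letters CCWWWWWWGG turned from above to below. When the longer peak list was shortened to its highest peaks to equal the other, an alternative added after seeing the data, 111 sites were shared. With 2 libraries of 1 group, differences between animals cannot be estimated.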
